A study of Mus musculus with 9 samples.

Results

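Fatty acid oxidation is the mitochondrial breakdown of fatty acids into acetyl-CoA, and 30 genes of this pathway were followed in RNA-seq libraries of mouse hematopoietic stem cells (HSCs). They were taken by gene symbol, each symbol matched exactly 1 row, and together they are 30 of the 56748 genes in the count table. The HSCs were sorted as Lin- Sca-1+ c-Kit+ CD150+ CD48- cells from the bone marrow of female C57BL/6 mice and formed 3 groups with 3 libraries each. Young HSCs (yHSCs) came from mice of 6 to 10 weeks. Pre-aged HSCs (paHSCs) came from mice of 14 to 16 months and were divided at sorting by the level of P-selectin on the cell surface into Selp_low and Selp_high paHSCs. P-selectin, the product of Selp, is an adhesion receptor of platelets, megakaryocytes and endothelium. No group carried a transgene or received a treatment by the labels, and whether mice were pooled for a library is not given in the sources used here, so the p-values measure the spread between these libraries.

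A fatty acid is first joined to coenzyme A by an acyl-CoA synthetase, then passed into the mitochondrion as a carnitine ester, and then shortened in repeated rounds of oxidation, hydration, oxidation and thiolysis. The electrons leave through the electron transfer flavoprotein, which feeds ubiquinone of the respiratory chain. Nuclear receptors of the PPAR family, which bind fatty acids, and the coactivators of the PGC-1 family are known to drive transcription of these enzymes. In HSCs, fatty acid oxidation downstream of Ppard is known for its part in self-renewal. The comparisons ask how the P-selectin fractions of pre-aged HSCs differ from each other and from young HSCs.

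The libraries held 24866975 to 35375310 counts, and between 21094 and 34143 genes had a count. Levels below are CPM, the counts of a gene relative to the total of its library, scaled by TMM factors, and levels compared between genes are also divided by gene length (FPKM). Selp itself measured 20.5, 29.99 and 23.2 CPM in the yHSC libraries, 109, 29.3 and 93.3 CPM in the Selp_low libraries and 651, 266 and 264 CPM in the Selp_high libraries, so the lowest Selp_high library stood above all Selp_low libraries. Between these fractions its log2 fold change was 2.34 ± 0.60 (SE), with an adjusted p of 0.338 in edgeR and 0.0216 in DESeq2. The 10 HSC markers summed to 1036 to 2293 CPM in yHSCs, 819 to 1505 CPM in Selp_low and 2172 to 3118 CPM in Selp_high paHSCs. In Selp_low replicates 1 and 2, Ly6a made up 635 of the 1505 and 880 of the 1307 CPM of this sum. Elsewhere Ly6a was at 69.6 to 373 CPM. Markers of other blood cells were also present, and 2 Selp_low libraries stood apart. In Selp_low replicate 2 the 8 B and plasma cell markers summed to 105800 CPM, against 77.8 to 5478 CPM elsewhere, and 44.8% of its counts fell on its 10 most abundant genes. In Selp_low replicate 3 the 9 neutrophil markers summed to 212700 CPM, against 542 to 64910 CPM elsewhere. The 8 megakaryocyte and platelet markers summed to 1286 to 7154 CPM in Selp_high paHSCs, 159 to 2151 CPM in Selp_low paHSCs and 121 to 187 CPM in yHSCs. The 7 T and NK cell markers summed to 398.5 to 1068 CPM in Selp_low paHSCs, 133.9 to 153.5 CPM in Selp_high paHSCs and 56.2 to 88.4 CPM in yHSCs. The 7 erythroid markers summed to 1493 to 3113 CPM in Selp_low paHSCs, 785 to 1251 CPM in Selp_high paHSCs and 297 to 2615 CPM in yHSCs. Both sums were higher in every Selp_low than in every Selp_high library. Taken singly, 2 of the 7 erythroid and 0 of the 7 T and NK cell markers were separated this way. Klrb1c, of the T and NK cell list, was higher in every Selp_high than in every Selp_low library. In Selp_low replicate 3, Nkg7 made up 619 of the 632 CPM of the T and NK cell sum, and Cd3d was at 1.87 CPM. The 6 adipocyte markers summed to at most 25.2 CPM in any library. In bulk libraries such as these, fewer cells of a type and less RNA per cell cannot be told apart.

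Of the 30 members, 25 had a promoter entry in the RefSeq table (GRCm38.p6, 250 bases before to 50 after the start of the gene). These windows were searched on both strands for AGGTCA, the core element that PPARs and related nuclear receptors recognise. It was found in 4 of the 25 members (Cpt1a, Acadm, Acadvl and Echs1), while 18.1% of the 27025 genes of the table held it. The direct repeat of AGGTCA with 1 base between, the classical PPAR response element, was in none of the 25 and in 13 of all genes. The longer element TCAAGGTCA of the estrogen-related receptors, which contains AGGTCA, was in none of the 25 and in 126 of all genes. A match describes the letters of a window and not a site of binding. The bases before the start of the 4 members are shown because Cpt1a, Acadm and Acadvl are among the members with an unadjusted p under 0.05 between Selp_high and Selp_low paHSCs in the paired fit given below, and Echs1 is the other member with the element. Capitals mark AGGTCA or its reverse complement, and each sequence runs 5′ to 3′ on the strand of its gene. The windows are chr19:3323051-3323300 on the plus strand for Cpt1a, chr3:153944644-153944893 on the minus strand for Acadm, chr11:70015429-70015678 on the minus strand for Acadvl and chr7:140116422-140116671 on the minus strand for Echs1, and the element begins 94, 249, 87 and 83 bases before the start.
Cpt1a: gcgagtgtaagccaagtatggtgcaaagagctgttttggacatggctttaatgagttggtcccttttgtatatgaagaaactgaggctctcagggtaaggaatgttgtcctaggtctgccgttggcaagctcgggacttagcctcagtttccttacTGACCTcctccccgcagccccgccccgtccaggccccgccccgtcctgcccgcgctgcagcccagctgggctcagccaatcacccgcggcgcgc
Acadm: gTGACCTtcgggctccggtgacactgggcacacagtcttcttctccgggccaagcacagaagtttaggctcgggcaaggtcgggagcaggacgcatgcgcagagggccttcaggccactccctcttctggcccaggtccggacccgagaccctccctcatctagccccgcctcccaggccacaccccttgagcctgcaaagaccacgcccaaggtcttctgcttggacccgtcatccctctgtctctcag
Acadvl: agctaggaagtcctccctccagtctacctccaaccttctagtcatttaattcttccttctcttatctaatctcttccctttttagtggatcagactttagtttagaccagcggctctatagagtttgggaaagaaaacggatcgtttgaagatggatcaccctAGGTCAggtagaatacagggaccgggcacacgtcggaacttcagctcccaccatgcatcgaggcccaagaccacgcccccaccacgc
Echs1: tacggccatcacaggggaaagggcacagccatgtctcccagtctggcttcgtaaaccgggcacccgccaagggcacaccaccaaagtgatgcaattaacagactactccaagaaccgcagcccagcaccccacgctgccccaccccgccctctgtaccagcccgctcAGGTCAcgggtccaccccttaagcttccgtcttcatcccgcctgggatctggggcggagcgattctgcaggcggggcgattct

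By level, the members spanned a wide range within one and the same pathway. The most abundant per length was Etfa, the alpha subunit of the electron transfer flavoprotein, at a mean of 83.0 FPKM over the 9 libraries (SD 20.3), followed by the thiolase Acaa2 at 74.2 FPKM (SD 15.6) and the long-chain dehydrogenase Acadl at 71.9 FPKM (SD 20.7). At the other end stood the regulators: Ppargc1b at 2.47 FPKM, Ppargc1a at 0.709, Ppard at 0.276 and Ppara at 0.175 FPKM. The ranges over the 9 libraries overlapped for all neighbours in the order of mean FPKM. Neighbours were measured in the same libraries, so this overlap does not decide whether adjacent ranks differ. Lengths are those of the count table, in which 1 length stands for all transcripts of a gene, and long models such as the 8730 bases of Hadha lower the FPKM. The summed FPKM of the 30 members was 586, 521 and 619 in the yHSC libraries, 607, 519 and 694 in the Selp_low libraries and 867, 514 and 706 in the Selp_high libraries. The 3 groups overlapped, and the highest and the lowest sum of all 9 libraries both fell in Selp_high paHSCs. The lowest, 514, was close to the 519 and 521 of replicate 2 of Selp_low paHSCs and yHSCs. With the library total alone, without TMM factors, the lowest sum was 283 in Selp_low replicate 2.

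**Figure D1:**
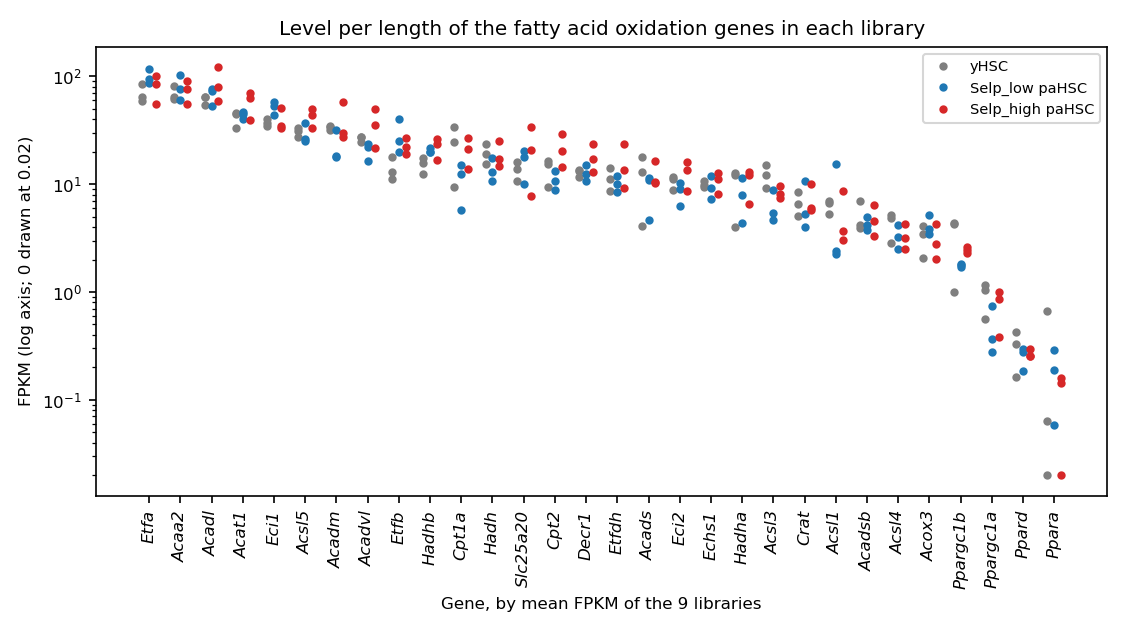
FPKM of each member (log axis) in the 9 libraries, ordered by the mean of the 9; each point is 1 library, coloured by group, and a value of 0 is drawn at 0.02. Enzymes and transporters lie between Etfa at 83.0 and Acox3 at 3.46 FPKM on average, and the 4 regulators are the last 4 genes at the right.

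Between Selp_high and Selp_low paHSCs, most members lay on the Selp_high side without passing the test. All 30 passed the filter on low counts. The log2 fold change was above 0 for 23 members, against 44.8% of all genes tested, and its median was 0.37 against -0.11 over all genes. No member was called at an adjusted p of 0.05 or less with a 2-fold change, by edgeR (0.0% of genes were called) or by DESeq2 (1.34% of genes). Cpt2 alone reached an unadjusted p under 0.05, in a comparison where 6.88% of genes did so upward and 5.67% downward. In 2 members, Cpt2 and Ppargc1b, every Selp_high library exceeded every Selp_low library, while 10.3% of genes were separated in this direction and 10.7% in the other. The 95% interval of the fold change lay within a 2-fold change both ways for 5 members (Acsl4, Acadsb, Hadhb, Echs1 and Acaa2), and for the other 25 it reached past a 2-fold change in at least 1 direction. Without Selp_high replicate 1, in which 12 of the 30 members were at their highest of all libraries, the median was 0.19 and 21 members were above 0. Without Selp_low replicate 2, in which 11 members were at their lowest, it was 0.24 and 22 members were above 0. The sums of T and NK cell and of erythroid markers were higher in all Selp_low than in all Selp_high libraries. The sum of HSC markers was higher in all Selp_high than in all Selp_low libraries, as were 8 of the 10 HSC markers taken singly. These sums moved with this comparison, and their part in it was not tested.

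These 2 groups were treated as paired by replicate number, although the labels do not say what a number marks. Libraries of the same number deviated from their group means together, with residual correlations of 0.178, 0.276 and 0.303. Between Selp_high paHSCs and yHSCs, which came from different mice, same-numbered libraries reached correlations of -0.412 and -0.417. The authors' reply to the referees describes all the RNA-seq samples as independent, so the pairing is an assumption. Of the 30 members, 14 were higher in Selp_high than in Selp_low paHSCs in all 3 pairs and 1, Eci1, was lower in all 3, against 21.6% and 24.5% of genes. In pair 1, 26 members were higher, in pair 2 and in pair 3 20 each, with median ratios of 1.40, 1.23 and 1.21, while the median ratio of all genes was 0.886, 1.03 and 0.946. With the replicate number as a block in the edgeR fit, 6 members had an unadjusted p under 0.05, all of them higher in Selp_high paHSCs: Cpt1a, Cpt2, Acadm, Acadvl, Hadh and Eci2. Of all genes, 10.1% did so upward. The smallest adjusted p of a member was 0.127 (Cpt2) in that fit. In DESeq2 with the same block, an alternative chosen after seeing the data, the adjusted p was 0.00923 for Cpt1a and 0.0214 for Cpt2. Their log2 fold changes of 0.94 and 0.92 were below the minimum of 1 for a call. That fit called 2134 of 43523 genes, against 582 in DESeq2 without the block.

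**Figure D2:**
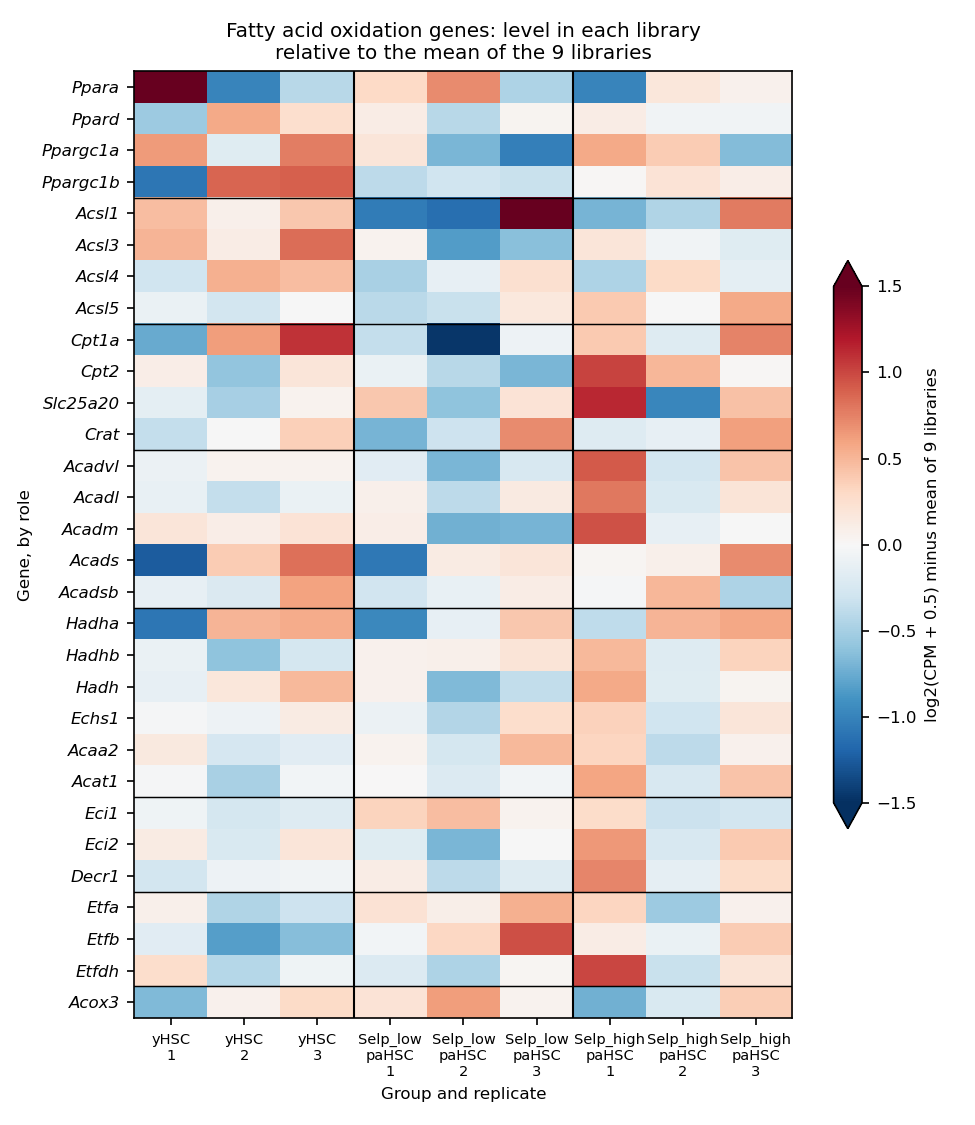
Level of each member in each library, as log2(CPM + 0.5) minus the mean of the 9 libraries, with genes in order of role (horizontal lines divide the roles) and libraries by group and replicate; values past 1.5 either way take the end colours. Selp_high replicate 1 holds the highest level of 12 members and Selp_low replicate 2 the lowest of 11.

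Set against yHSCs, the Selp_high paHSCs had no member past the test. The log2 fold change was above 0 for 19 of 30 members, against 47.8% of genes, with a median of 0.09 against -0.03. Selp_high replicate 1 decided this direction: without it the median was -0.03 with 14 members above 0 in edgeR, and -0.06 with 14 in DESeq2. Without Selp_high replicate 2 it was 0.21 in edgeR. No member was called by edgeR (0.165% of genes) or by DESeq2 (1.46% of genes), and none had an unadjusted p under 0.05 (4.48% of genes upward, 3.11% downward). The libraries did not overlap for Acsl5 and Etfb, both higher in Selp_high paHSCs, where 8.53% of genes were separated upward and 5.28% downward. With RLE scaling factors in place of TMM, neither was separated. For 11 members the 95% interval lay within a 2-fold change both ways. All 4 regulators had fold changes below 0, between -1.35 (Ppara) and -0.22 (Ppard) on the log2 scale. The sum of megakaryocyte and platelet markers was higher in all Selp_high than in all yHSC libraries, as were all 8 markers singly. The B and plasma cell and the T and NK cell sums were separated the same way, with 3 of 8 and 2 of 7 markers singly. The part of these sums in this comparison was not tested.

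Selp_low paHSCs against yHSCs gave changes in both directions. The log2 fold change was above 0 for 12 members, against 55.1% of genes, and the median was -0.15 against 0.08. All 4 regulators were below 0 here too, between -0.93 and -0.22. No member was called by edgeR (0.0% of genes) or by DESeq2 (1.19%). Etfb had an unadjusted p under 0.05 upward (7.11% of genes) and Acsl3 downward (4.17%). Libraries did not overlap for 7 members: Hadhb, Eci1, Etfa and Etfb were higher and Acsl3, Acadvl and Acadm lower in Selp_low paHSCs, against 9.59% and 6.76% of genes. With the library total alone, 0 members were separated upward and 8 downward, against 1.65% and 17.7% of genes. Without yHSC replicate 3 the median of the members was 0.03 with 17 above 0. Without Selp_low replicate 3, the library with the highest neutrophil marker sum, it was -0.32 with 9 above 0. The sum of T and NK cell markers was higher in all Selp_low than in all yHSC libraries, as was 1 of 7 singly. The megakaryocyte and platelet sums overlapped, though 5 of these 8 markers were higher in all Selp_low libraries. The part of these markers in this comparison was not tested. The comparisons share their control libraries, since each group enters 2 of them, and they are therefore given side by side rather than as independent results.

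**Figure D3:**
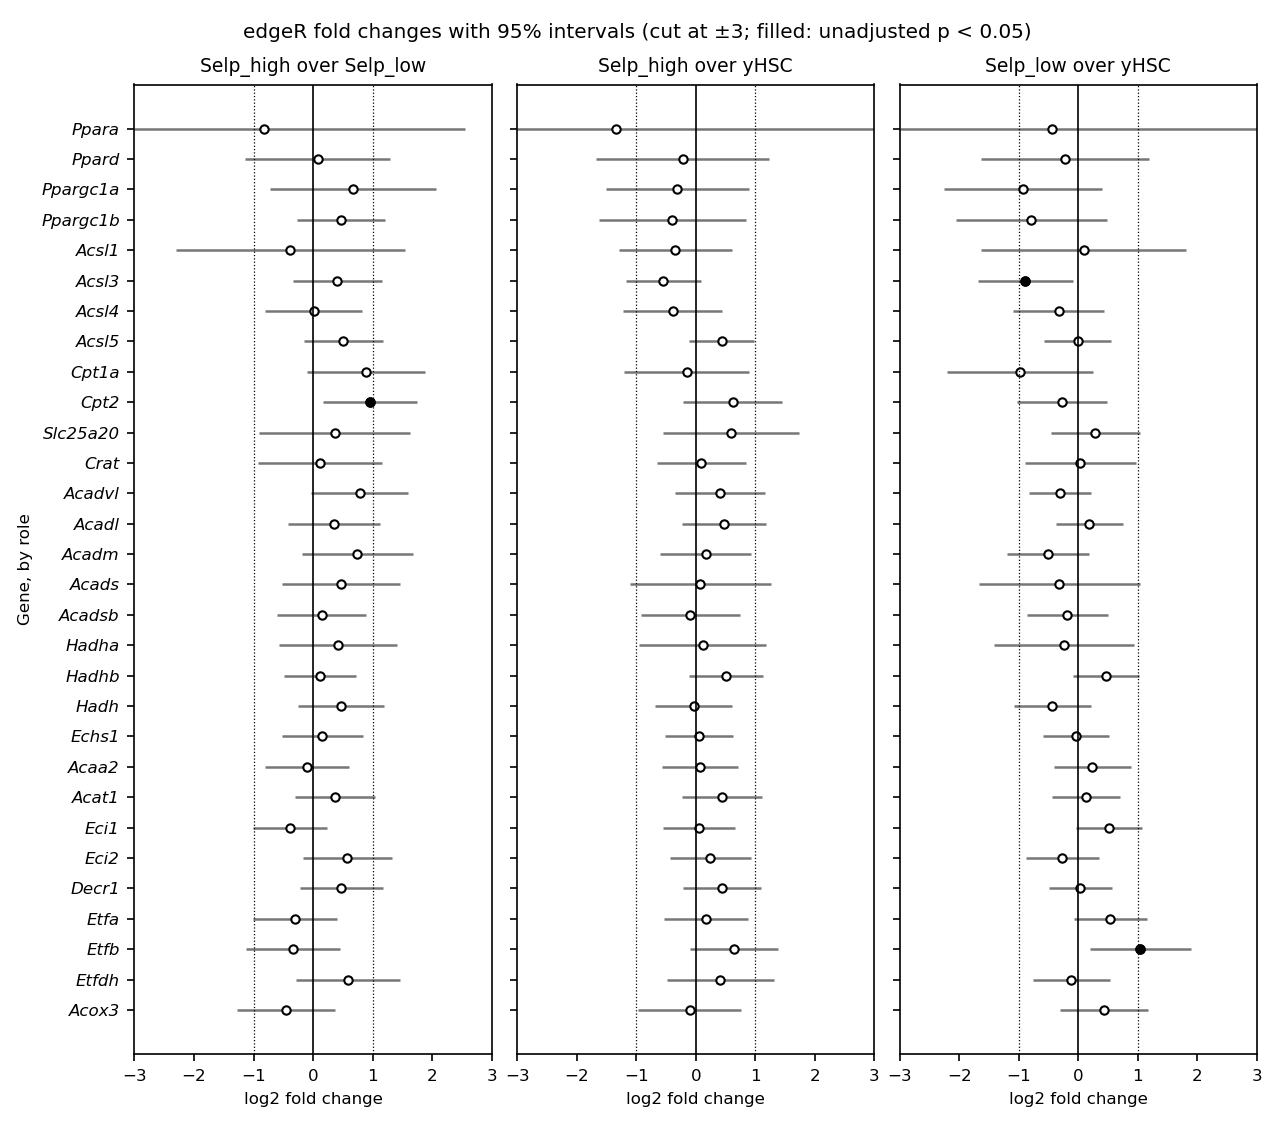
edgeR log2 fold change (points) and approximate 95% interval (lines, cut at 3 either way) of each member in the 3 comparisons, in order of role; dotted lines mark a 2-fold change and filled points an unadjusted p under 0.05. Filled points are Cpt2 between the paHSC fractions and Acsl3 and Etfb between Selp_low paHSCs and yHSCs, and most other intervals include 0.

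Among the regulators, Ppara and Ppard encode the nuclear receptors and Ppargc1a and Ppargc1b the coactivators PGC-1 alpha and PGC-1 beta. Ppara was close to the limit of detection. Its highest value was 2.58 CPM, in yHSC replicate 1, and it had 0 counts in yHSC replicate 2 and Selp_high replicate 1, which allows up to 0.0851 and 0.0848 CPM before TMM scaling (a limit of 3 counts that covers counting error only). Ppard, the receptor linked to HSC maintenance, stayed between 1.22 and 3.22 CPM in all 9 libraries. Ppargc1a ranged from 1.84 to 7.60 CPM. Ppargc1b was the most abundant regulator per length and measured 3.998, 16.97 and 17.2 CPM in yHSCs, 6.75, 7.25 and 7.08 CPM in Selp_low paHSCs and 9.16, 10.5 and 9.73 CPM in Selp_high paHSCs. The paHSC fractions were tight and separate, while yHSC replicate 1 lay below all paHSC libraries and the other 2 yHSC libraries above them. Selp_high exceeded Selp_low paHSCs by a log2 fold change of 0.47 ± 0.31 (SE; adjusted p = 0.575, edgeR). Against yHSCs, the log2 fold change of Selp_low paHSCs was -0.79. Without yHSC replicate 1 it was -1.22 with an adjusted p of 0.0201 in DESeq2 and -1.27 with an adjusted p of 0.129 in edgeR. That DESeq2 fit called 2524 of 42566 genes, against 519 of 43683 with all libraries.

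The acyl-CoA synthetases Acsl1, Acsl3, Acsl4 and Acsl5 activate long-chain fatty acids and differ in location and in the chains they prefer, Acsl4 being known for arachidonate. Acsl5 was the most abundant of them per length, with 151, 134 and 160.2 CPM in yHSCs, 122, 128 and 180.4 CPM in Selp_low and 213, 161 and 240.2 CPM in Selp_high paHSCs. The lowest Selp_high library was just above the highest yHSC library, and the log2 fold change over yHSCs was 0.43 ± 0.23 (SE; adjusted p = 0.808). Acsl3 measured 52.5, 39.9 and 66.1 CPM in yHSCs, 38.4, 20.4 and 23.7 CPM in Selp_low and 42.0, 35.6 and 32.5 CPM in Selp_high paHSCs. All Selp_low libraries lay under all yHSC libraries, by a narrow gap between Selp_low replicate 1 and yHSC replicate 2. The log2 fold change of Selp_low paHSCs over yHSCs was -0.89 ± 0.34 (SE), with an unadjusted p of 0.033 and an adjusted p of 0.386 in edgeR. The unadjusted p stayed under 0.05 without yHSC replicate 2 or Selp_low replicate 1 and rose above it without any other library. Acsl4 ranged from 13.4 to 27.7 CPM and its groups overlapped.

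Acsl1 varied most within groups of all members, with an SD of 1.01 on the log2 CPM scale. It measured 72.5, 55.1 and 69.5 CPM in yHSCs, 25.1, 23.7 and 159.9 CPM in Selp_low and 32.1, 38.2 and 90.05 CPM in Selp_high paHSCs. It is given in full, after its values were seen, because 1 library decides its direction. Selp_low replicate 3 was the highest of all 9 libraries, and the summed neutrophil markers were highest there too. The next highest libraries were Selp_high replicate 3 and yHSC replicate 1, with neutrophil sums of 41880 and 64910 CPM, and the lowest, Selp_low replicate 2, had the lowest neutrophil sum, 542 CPM. The part of the neutrophil transcripts in the level of Acsl1 was not tested. With all libraries the log2 fold change of Selp_low paHSCs over yHSCs was 0.09. Without Selp_low replicate 3 it was -1.43 (adjusted p = 0.0979, edgeR) or -1.42 (adjusted p = 0.000791, DESeq2). That DESeq2 fit called 1565 of 42463 genes, against 519 of 43683 with all libraries. Between Selp_high and Selp_low paHSCs, the log2 fold change of Acsl1 was -0.38 with all libraries and 1.12 without Selp_low replicate 3 (adjusted p = 0.408, edgeR).

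In the carnitine shuttle, Cpt1a, the rate-limiting outer membrane transferase that malonyl-CoA inhibits, was the most abundant per length. It measured 72.0, 189 and 261 CPM in yHSCs, 95.2, 44.2 and 115 CPM in Selp_low paHSCs and 160.2, 107 and 206 CPM in Selp_high paHSCs. Selp_high exceeded Selp_low paHSCs in each pair, by ratios of 1.68, 2.42 and 1.78, although Selp_high replicate 2 was below Selp_low replicate 3. With the replicate block the log2 fold change was 0.94 ± 0.21 (SE; unadjusted p = 0.00519 and adjusted p = 0.13, edgeR). Cpt2, the inner membrane transferase that returns the acyl group to coenzyme A, measured 36.7, 22.5 and 38.8 CPM in yHSCs, 31.8, 25.4 and 21.1 CPM in Selp_low and 69.8, 48.6 and 34.6 CPM in Selp_high paHSCs. Every Selp_high library was above every Selp_low library, and the pair ratios were 2.19, 1.91 and 1.64. The log2 fold change was 0.96 ± 0.34 (SE), a 1.94-fold difference with a 95% interval of 0.16 to 1.75 on the log2 scale, an unadjusted p of 0.0249 and an adjusted p of 0.35 in edgeR. With the block it was 0.92 ± 0.20 (SE; adjusted p = 0.127), and over the libraries left out in turn it ranged from 0.67 to 1.18 in the unpaired edgeR fit. In limma voom with quality weights it was 0.53, and neither there nor in DESeq2 without the block was the unadjusted p under 0.05. The unadjusted p of the unpaired edgeR fit rose above 0.05 without Selp_low replicate 2, Selp_low replicate 3 or Selp_high replicate 1. Slc25a20, the carnitine-acylcarnitine carrier between both transferases, ranged from 37.2 to 163 CPM, with both extremes among the Selp_high libraries. Crat, which acts on acetyl and short chains, ranged from 21.5 to 58.1 CPM with overlapping groups.

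**Figure D4:**
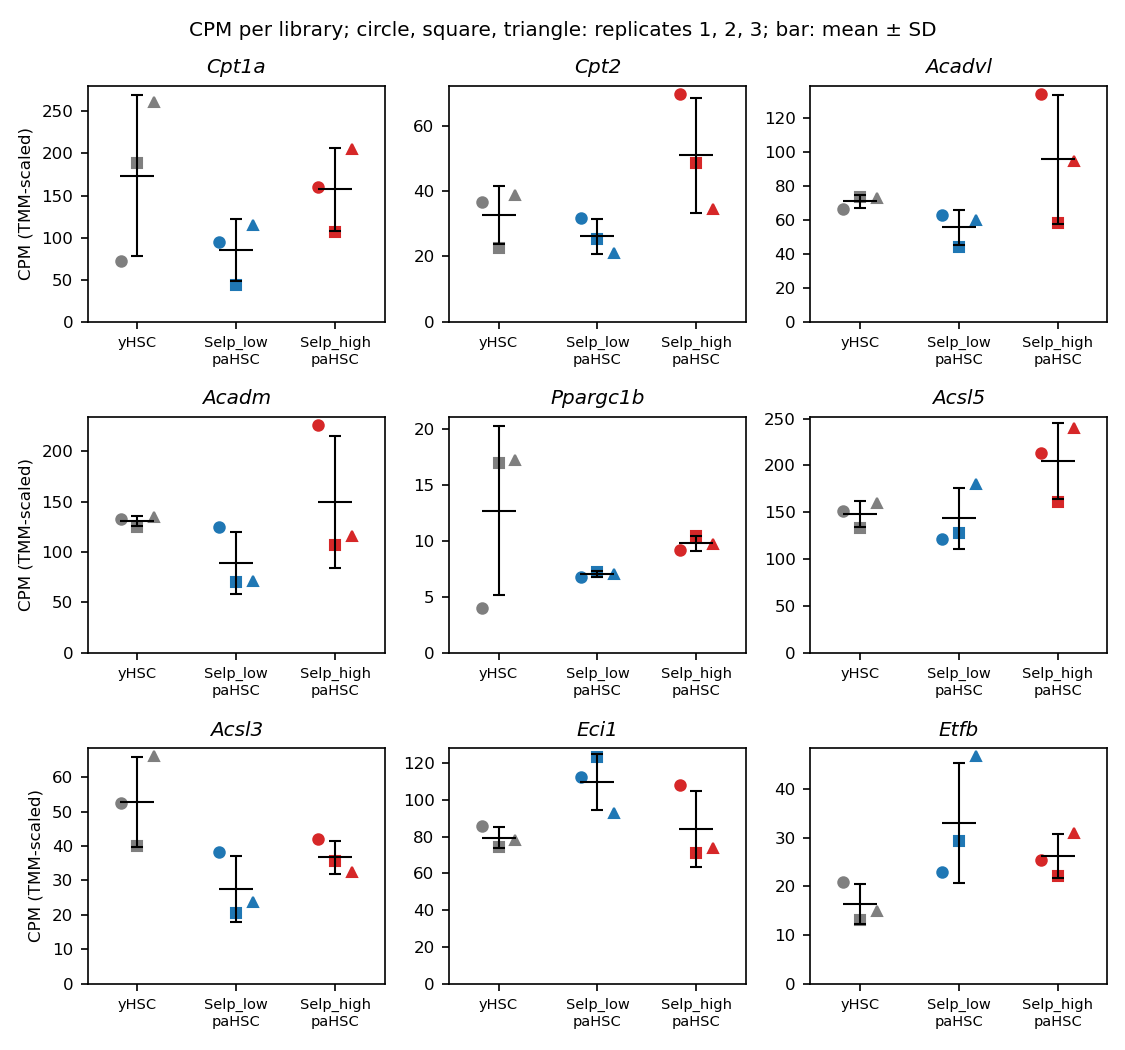
CPM (TMM-scaled, axes from 0) of 9 members in each library, with circles, squares and triangles for replicates 1, 2 and 3 and the mean ± SD of each group (n = 3). Cpt2 and Ppargc1b are higher in every Selp_high than in every Selp_low library, and for Cpt1a, Acadvl and Acadm each Selp_high library is above the Selp_low library of the same number.

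The acyl-CoA dehydrogenases start each round and divide the chains by length, from Acadvl (very long) through Acadl (long) and Acadm (medium) to Acads (short), while Acadsb acts on short branched chains. All 5 had log2 fold changes above 0 between Selp_high and Selp_low paHSCs, from 0.14 to 0.78. Acadl, the most abundant of them per length, measured 129, 109 and 130.1 CPM in yHSCs, 148, 106 and 154 CPM in Selp_low and 243, 119 and 159.7 CPM in Selp_high paHSCs, so the groups overlapped. Acadvl measured 66.6, 73.3 and 73.1 CPM in yHSCs, 62.9, 43.9 and 59.9 CPM in Selp_low and 134, 58.4 and 94.9 CPM in Selp_high paHSCs. The Selp_low libraries lay below the yHSC libraries, and the log2 fold change there was -0.31 ± 0.22 (SE; adjusted p = 0.692). Acadvl was higher in Selp_high than in Selp_low paHSCs by ratios of 2.14, 1.33 and 1.59 in the pairs, with an adjusted p of 0.19 under the block.

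Acadm, whose loss is a known human disorder of fasting, measured 133, 125 and 135 CPM in yHSCs, 124, 70.5 and 71.7 CPM in Selp_low and 226, 107 and 116 CPM in Selp_high paHSCs. The yHSC libraries were close together and above all Selp_low libraries, by a gap of under 1 CPM to Selp_low replicate 1 and a wide one to the others. The log2 fold change of Selp_low paHSCs over yHSCs was -0.51 ± 0.29 (SE; adjusted p = 0.588). The pair ratios of Selp_high over Selp_low paHSCs were 1.82, 1.52 and 1.63, with an adjusted p of 0.16 under the block. Acads ranged from 9.22 to 40.5 CPM and Acadsb from 23.6 to 50.1 CPM, without separation of the groups.

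Hadha and Hadhb encode the subunits of the trifunctional protein, which carries out the later steps of each round on long chains. They lie head to head on chromosome 5 in mm39, Hadha on the minus strand from 30323302 to 30360160 and Hadhb on the plus strand from 30360246 to 30389591, with their starts 86 bases apart. Hadhb measured 116, 82.2 and 104 CPM in yHSCs, 131, 132 and 143 CPM in Selp_low and 175, 109 and 157 CPM in Selp_high paHSCs. Every Selp_low library was above every yHSC library, with a log2 fold change of 0.46 ± 0.23 (SE; adjusted p = 0.525). Hadha measured 35.2, 107 and 110.5 CPM in yHSCs, 38.1, 68.7 and 99.1 CPM in Selp_low and 57.5, 107 and 112 CPM in Selp_high paHSCs, and was lowest in replicate 1 of each group. It is given in full after its values were seen. The ratio of Hadha to Hadhb in FPKM was 0.229, 0.22 and 0.249 in replicate 1 of yHSCs, Selp_low and Selp_high paHSCs, and 0.393 to 0.982 in the other 6 libraries. Whether the counting used strand is not given in the sources used here.

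Among the other enzymes of the later steps, Acaa2, the thiolase of medium and long chains, was the most abundant per length. It measured 123, 92.9 and 97.7 CPM in yHSCs, 115, 91.6 and 155 CPM in Selp_low and 138, 83.9 and 116 CPM in Selp_high paHSCs, and its groups overlapped in all comparisons. Hadh, the dehydrogenase of shorter hydroxyacyl chains, ranged from 52.7 to 124 CPM and was higher in Selp_high than in Selp_low paHSCs in each pair, with ratios of 1.43, 1.40 and 1.33. Echs1, the short-chain hydratase, ranged from 60.2 to 104 CPM, a ratio of 1.73 that was the smallest of the 30 members. Acat1, which cleaves acetoacetyl-CoA, ranged from 124 to 263 CPM. None of these 4 was separated between groups in any comparison.

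Eci1 and Eci2 are isomerases and Decr1 a reductase that prepare unsaturated chains for oxidation. Eci1 ran against the majority. It measured 85.6, 74.3 and 78.4 CPM in yHSCs, 113, 124 and 93.1 CPM in Selp_low and 108, 71.2 and 73.8 CPM in Selp_high paHSCs. All Selp_low libraries were above all yHSC libraries (log2 fold change 0.51 ± 0.23 SE; adjusted p = 0.469), and the pair ratios of Selp_high over Selp_low were 0.958, 0.576 and 0.792. Eci2, an isomerase found in mitochondria and peroxisomes, ranged from 35.1 to 89.5 CPM, and its pair ratios were 1.79, 1.36 and 1.33. Decr1 ranged from 41.4 to 91.5 CPM with pair ratios of 1.55, 1.21 and 1.38.

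Etfa and Etfb form the electron transfer flavoprotein, and Etfdh hands its electrons to ubiquinone. Etfa measured 156, 108 and 119 CPM in yHSCs, 172, 158 and 215 CPM in Selp_low and 186, 102 and 155 CPM in Selp_high paHSCs. The Selp_low libraries were all above the yHSC libraries, by a log2 fold change of 0.54 ± 0.26 (SE; adjusted p = 0.502). Etfb measured 20.9, 13.1 and 15.1 CPM in yHSCs, 23.0, 29.4 and 46.8 CPM in Selp_low and 25.5, 22.1 and 31.1 CPM in Selp_high paHSCs. It was the member with yHSCs lowest against both paHSC fractions without overlap. Over yHSCs, its log2 fold change was 1.04 ± 0.36 (SE) in Selp_low paHSCs, 2.06-fold with a 95% interval of 0.20 to 1.88 on the log2 scale, an unadjusted p of 0.0227 and an adjusted p of 0.36 in edgeR. In Selp_high paHSCs it was 0.64 ± 0.32 (SE; adjusted p = 0.753). Its unadjusted p for Selp_low paHSCs over yHSCs in edgeR rose above 0.05 without yHSC replicate 2, without yHSC replicate 3, without Selp_low replicate 3 and with the replicate block. In these 4 fits its log2 fold change was 0.89, 0.98, 0.68 and 1.03. Etfdh ranged from 63.7 to 176 CPM with overlapping groups.

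Acox3, a peroxisomal oxidase of branched chains, measured 23.9, 40.1 and 46.8 CPM in yHSCs, 44.2, 59.1 and 39.5 CPM in Selp_low and 23.1, 32.4 and 49.4 CPM in Selp_high paHSCs. The groups overlapped, and the interval of Selp_high over yHSCs lay within a 2-fold change both ways.

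The median within-group SD of log2 CPM was 0.39 for the members, 0.537 for all 21754 genes tested in any comparison and 0.474 for the 11834 genes in the range of mean levels of the members other than Ppara. Eci1, Hadhb and Acsl5 were the steadiest, with SDs of 0.233, 0.253 and 0.258, and next to Acsl1 the widest were Ppara at 0.941, Acads at 0.783 and Cpt1a at 0.749.

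Other genes around the pathway were read as lists. Among 14 further genes of mitochondrial oxidation, of which 13 passed the filter (Cpt1b did not), 7 had an unadjusted p under 0.05 upward and 0 downward between Selp_high and Selp_low paHSCs, and the list had its median log2 fold change at 0.71. Of all genes, 6.88% passed upward and 5.67% downward, with a median of -0.11. DESeq2, which called 1.34% of genes, called 1 of the 13, Acad10, a dehydrogenase homologue, at 7.28, 5.998 and 8.80 CPM in Selp_low and 24.0, 18.6 and 24.1 CPM in Selp_high paHSCs (adjusted p = 0.022 by DESeq2 and 0.338 by edgeR). Against yHSCs, 3 of these 13 had an unadjusted p under 0.05 upward in Selp_high paHSCs, where 4.48% of genes did. DESeq2, with 1.46% of genes called, called Cpt1c, the carnitine palmitoyltransferase homologue known from neurons, at 3.86, 2.2 and 2.19 CPM in yHSCs and 16.6, 8.33 and 11.0 CPM in Selp_high paHSCs (adjusted p = 0.00363 by DESeq2 and 0.207 by edgeR). Nadk2, the mitochondrial NAD kinase, was at 78.1 to 97.1 CPM in yHSCs and 158 to 182 CPM in Selp_high paHSCs (adjusted p = 0.279, edgeR).

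For uptake and binding, 12 genes were listed and 11 passed (Fabp3 did not). Between Selp_high and Selp_low paHSCs, 3 had an unadjusted p under 0.05, the fatty acid transporters Slc27a1, Slc27a2 and Slc27a6, all upward, where 6.88% of genes passed upward and 5.67% downward. DESeq2, with 1.34% of genes called, called Slc27a6 (log2 fold change 1.70 in edgeR, adjusted p = 0.0407 by DESeq2 and 0.338 by edgeR). Of 15 peroxisomal genes, 14 passed. Acox2, an oxidase of the peroxisome, and Hsd17b4, its bifunctional enzyme, had an unadjusted p under 0.05 upward, with log2 fold changes of 1.46 and 0.92. Of 16 PPAR partners and targets, 14 passed in this comparison and 1, the pyruvate dehydrogenase kinase Pdk4, did so, at 0.132 to 1.97 CPM in Selp_low and 2.86 to 8.39 CPM in Selp_high paHSCs. No gene of these 3 lists went down with an unadjusted p under 0.05. Of 11 genes of synthesis and malonyl-CoA, 8 had fold changes above 0 and 3 below, and an unadjusted p under 0.05 was reached by 2 upward (Elovl6 and Srebf1) and by Scd1 downward. DESeq2 called Scd1 lower in Selp_high than in Selp_low paHSCs (log2 fold change -3.99 in edgeR, adjusted p = 0.0123 by DESeq2 and 0.344 by edgeR) and higher in Selp_low paHSCs than in yHSCs, where it called 1.19% of genes (log2 fold change 4.96 in edgeR, adjusted p = 0.00071 by DESeq2 and 0.332 by edgeR). Scd1, the stearoyl-CoA desaturase, was at 144 and 200.4 CPM in Selp_low replicates 1 and 2, the 2 libraries with the highest B and plasma cell marker sums, 5478 and 105800 CPM, and at 2.55 to 11.9 CPM in all other libraries. The part of B-cell transcripts in this was not tested. No gene of the 5 lists was called by edgeR in any comparison.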

How the data were processed

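RNA from sorted HSCs was amplified with a SMARTer Ultra Low kit and sequenced in 9 libraries. Per the labels and the study's methods, the authors trimmed reads with fastp, aligned them with HISAT2 2.2.1 and counted them per gene with featureCounts 2.0.6. The submitters' processing notes name these versions, CASAVA 1.8, DESeq2 1.42.0 and the build mm39. The strand setting of the counting is not given in the sources used here. Raw counts per gene are the deposited values, as the authors made them, with 0 sample columns left unused.

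The 3 comparisons were each fitted on their own 6 libraries by the quasi-likelihood test of edgeR 4.0.16 (TMM factors, filterByExpr) in R 4.3.3, with Benjamini-Hochberg adjustment over all genes tested. A call needed an adjusted p no higher than 0.05 and a change of 2-fold or more. Standard errors are the fold change over the square root of F, and intervals are approximate. DESeq2 1.42.0, limma 3.58.1 (voom), other scaling, no filter, 1 fit of all 9 libraries, the replicate block and leaving out each library were alternatives. The tests were run on simulated counts with 200 genes changed by 3 on the log2 scale either way, at a dispersion shared by all genes. The members changed by less, so this does not show whether the tests find changes of their size. Summaries used Python 3.11.15 with pandas 2.3.3 and figures matplotlib 3.10.9.

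The labels share replicate numbers without saying what they mark. Residuals of same-numbered libraries correlated at over 0.1 in all 3 pairs between Selp_high and Selp_low paHSCs (0.178, 0.276 and 0.303). On that ground alone these groups were treated as paired, although the authors' reply to the referees describes all the RNA-seq samples as independent. The residuals did not correlate at over 0.1 between Selp_high paHSCs and yHSCs (-0.412, -0.417 and 0.0525) or between Selp_low paHSCs and yHSCs (0.0917, 0.0281 and 0.0696).

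All 30 members are named in order of role. Values in every library are given for members called, members whose groups did not overlap and the most abundant member of each role. Up to 3 genes with the smallest p are named for each other list. The members and lists were chosen with earlier results of these data known. A result of the peroxisomal list is not reported here.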

Additional observations from a re-analysis of the deposited data

How the results depend on the processing

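No member was called under any alternative except in DESeq2 without 1 library, which was added after seeing the data. There it called 1 member between Selp_low paHSCs and yHSCs without yHSC replicate 1 (Ppargc1b) and 1 without Selp_low replicate 3 (Acsl1). These fits called 2524 of 42566 and 1565 of 42463 genes, against 519 of 43683 with all libraries. The number of members with an unadjusted p under 0.05 is given with the same number over all genes tested in brackets. Between Selp_high and Selp_low paHSCs, it was 1 (2555 of 20370 genes). It was 3 with no filter (3982 of 43523 genes), 0 in DESeq2 (3826 of 43523) and 6 in voom (4676 of 20370). In 1 fit of all 9 libraries it was 2 (2709 of 22594 genes), and with the replicate block 6 (3675 of 20370). The block in DESeq2 gave 4 (6135 of 43523 genes). Leaving out a library gave 0 to 4, with 4 in edgeR without Selp_high replicate 2 (3450 of 21480 genes). Between Selp_high paHSCs and yHSCs it was 0 (1519 of 20017 genes), with 4 in voom (3282 of 20017). It was 0 to 4 with a library left out, with 4 in edgeR without Selp_high replicate 2 (1573 of 21080 genes). Between Selp_low paHSCs and yHSCs it was 2 (2306 of 20437 genes), with 8 in voom (6075 of 20437). With the replicate block it was 1 in edgeR (1549 of 20437 genes) and in DESeq2 (2868 of 43683). It was 0 to 4 with a library left out. The 4 were reached in edgeR without yHSC replicate 1 (4409 of 21537 genes) or Selp_low replicate 1 (2060 of 21823), and without the same libraries in DESeq2. The cause of these differences was not tested. Members without overlap numbered 8 between the paHSC fractions with the library total alone. All 8 were higher in Selp_high paHSCs, where 18.2% of genes were separated upward and 2.72% downward. With RLE factors they numbered 0 between Selp_high paHSCs and yHSCs, against 8.08% of genes upward and 6.39% downward. Between Selp_low paHSCs and yHSCs they numbered 4, with 2 in each direction, against 8.95% upward and 7.96% downward. With the library total alone the summed FPKM was 696, 638 and 668 in yHSCs and 660, 283 and 545 in Selp_low paHSCs. In Selp_high paHSCs it was 949, 612 and 743. Selp between the paHSC fractions passed the threshold with no filter (2.40 on the log2 scale), in DESeq2 (2.36), in DESeq2 with the block (2.41) and in DESeq2 without Selp_low replicate 1 or 3 or Selp_high replicate 2 or 3, with 1.77 to 2.73 over both tools with a library left out. Selp between Selp_high paHSCs and yHSCs no longer passed in 1 fit of all 9 libraries (4.002), with the replicate block (3.84) and in edgeR without any 1 library other than Selp_high replicate 1, with 3.38 to 4.22 over both tools. Selp between Selp_low paHSCs and yHSCs passed in DESeq2 without Selp_low replicate 2, with 1.31 to 2.05 over both tools with a library left out. With 3 libraries a group and within-group SDs of 0.233 to 1.01 on the log2 scale, most intervals were wider than a 2-fold change.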

Other observations

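The replicate number went with the level of several members across all 3 groups. The library of number 2 was the lowest of its group in yHSCs, Selp_low and Selp_high paHSCs alike for 9 members (Slc25a20, Acadl, Acadm, Echs1, Acaa2, Acat1, Eci2, Etfa and Etfdh), while 5.87% of 21754 genes did this. The library of number 1 was the lowest in all 3 groups for 5 members (Ppargc1b, Acsl4, Crat, Acads and Hadha), against 9.93% of genes, and that of number 3 the highest for 5 (Acsl5, Cpt1a, Crat, Acads and Hadha), against 8.09%. This count was chosen after seeing the data, and the labels do not say what a number marks.

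The ratio of Etfa to Etfb in FPKM, the subunits of 1 flavoprotein, was 4.73, 5.25 and 5.02 in yHSCs, 4.75, 3.40 and 2.91 in Selp_low paHSCs and 4.62, 2.92 and 3.17 in Selp_high paHSCs. The replicate 1 libraries of both paHSC fractions lay close to the yHSC libraries and the other 4 lay below them.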
